A study of Rattus with 8 samples.

Results

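The genes described here are 8 genes of antigen processing for major histocompatibility complex (MHC) class I, chosen by symbol: B2m, Tap1, Tap2, Tapbp, Psmb8, Psmb9, Psmb10 and Nlrc5. They were chosen with earlier results of these data known. All 8 were among the 18374 genes of the deposited table, and all 8 passed the filter on low counts that left 14336 genes for testing. They were measured by messenger RNA sequencing of cultured rat neural stem cells on day 5, in 8 libraries that fall into 4 groups of 2. The control cells received no treatment, the piezoelectric group was cultured with a piezoelectric material that the labels name no further, the ultrasound group was treated with ultrasound, and the nanosticker group was cultured with piezoelectric nanostickers. A piezoelectric material turns mechanical force into electric charge. Not stated in the labels are any ultrasound exposure of the nanosticker group, the difference between its material and the one given to piezoelectric cells, the strain and age of the rats, and whether the libraries of a group came from separate cultures. The p-values therefore measure only the spread between these libraries, which may be technical.

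MHC class I molecules show peptides from the inside of a cell to cytotoxic T cells. The proteasome cuts cellular proteins into peptides, the transporter TAP moves the peptides into the endoplasmic reticulum, and chaperones load them onto a heavy chain that is paired with beta-2-microglobulin. Interferons are known to raise the whole pathway, in part by exchanging the catalytic subunits of the proteasome for those of the immunoproteasome. Cells of the healthy brain, neurons and neural precursors among them, are known for low class I expression, and microglia, the brain's macrophages, for a higher one.

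The libraries held between 15239133 and 15628667 counts each. The label of neural stem cells was not checked, since no markers of differentiated neural cells were set beside 10 stem and progenitor markers. All 10 were detected. In control cells they ran from 5320 CPM (counts scaled to library size; mean, n = 2) for Vim, 959 for Fabp7, 354 for Nes and 281 for Sox2 down to 6.83 for Hes5, 4.71 for Sox1 and 2.68 for Prom1. Control replicates differed from each other along transcript length (Spearman -0.525 across 12140 genes, against 0.131 to 0.220 within the other groups), so calls that end without 1 of them are given. The RNA came from whole cultures, in which fewer cells of a type and less RNA per cell cannot be told apart.

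By the deposited positions, on build Rnor 6.0, 4 of the 8 genes lie side by side within 36164 bases of chromosome 20. In order these are Psmb9 (gene identifier 24967, 3973424 to 3978845, minus strand), Tap1 (24811, 3979302 to 3989669, plus strand), Psmb8 (24968, 3990809 to 3993829, plus strand) and Tap2 (24812, 3995544 to 4009587, plus strand). Psmb9 and Tap1 point away from each other with 456 bases between their annotated starts. Tapbp (25217) lies farther along chromosome 20, from 5466951 to 5476007 on the plus strand. B2m (24223) lies on chromosome 3 from 114087287 to 114093311 on the plus strand. Psmb10 (291983) and Nlrc5 (291861) lie on the minus strand of chromosome 19, from 37909543 to 37912027 and from 10904381 to 11006202. None of the 8 overlaps another gene of the table. The estimated counts of Tap2 were not whole in 8 of 8 libraries, those of Psmb8 in 2 and those of Nlrc5 in 1, so these genes may trade reads with others and their values are uncertain to that extent.

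Class II genes flank the cluster on both sides. Within 100 kb of it, the class II chain genes RT1-Ba, RT1-Bb, RT1-Db1 and RT1-Db2 and the class II peptide-editing gene RT1-DMb had at most 4, 1, 3, 8 and 12 counts in any library. Tap1, between them, had 263 to 450. RT1-DMa, a further gene of class II peptide loading, was the exception, with 254 to 355 estimated counts, not all whole. Of 11 class II genes in the table it alone passed the filter on low counts, and it did not pass the test in the nanosticker group (20.02 ± 3.29 CPM in control and 17.3 ± 0.275 CPM in nanosticker cells, edgeR's adjusted p = 0.317).

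Levels of different genes can be compared per transcript length, in TPM, which scales counts to transcript length and library. In control cells B2m, the light chain that every class I molecule shares, stood at 704 ± 9.16 TPM (n = 2) and made up most of the summed TPM of the 8 genes, between 81.8% and 83.7% in the 8 libraries. The immunoproteasome genes followed, with Psmb10 at 49.1 ± 0.665 TPM, Psmb8 at 36.4 ± 2.06 TPM and Psmb9 at 20.1 ± 4.86 TPM. The tapasin gene Tapbp and the transporter genes Tap1 and Tap2 stood close together at 16.8 ± 0.898, 15.9 ± 0.410 and 15.9 ± 1.87 TPM. Nlrc5, which encodes the transcriptional activator of class I genes, was far below the rest at 1.65 ± 0.212 TPM. The deposited row of Nlrc5 also carries the name of its neighbour Cpne2 as another symbol, but Cpne2 has a row and position of its own, and the identifier 291861 is that of Nlrc5 in RefSeq.

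**Figure D1:**
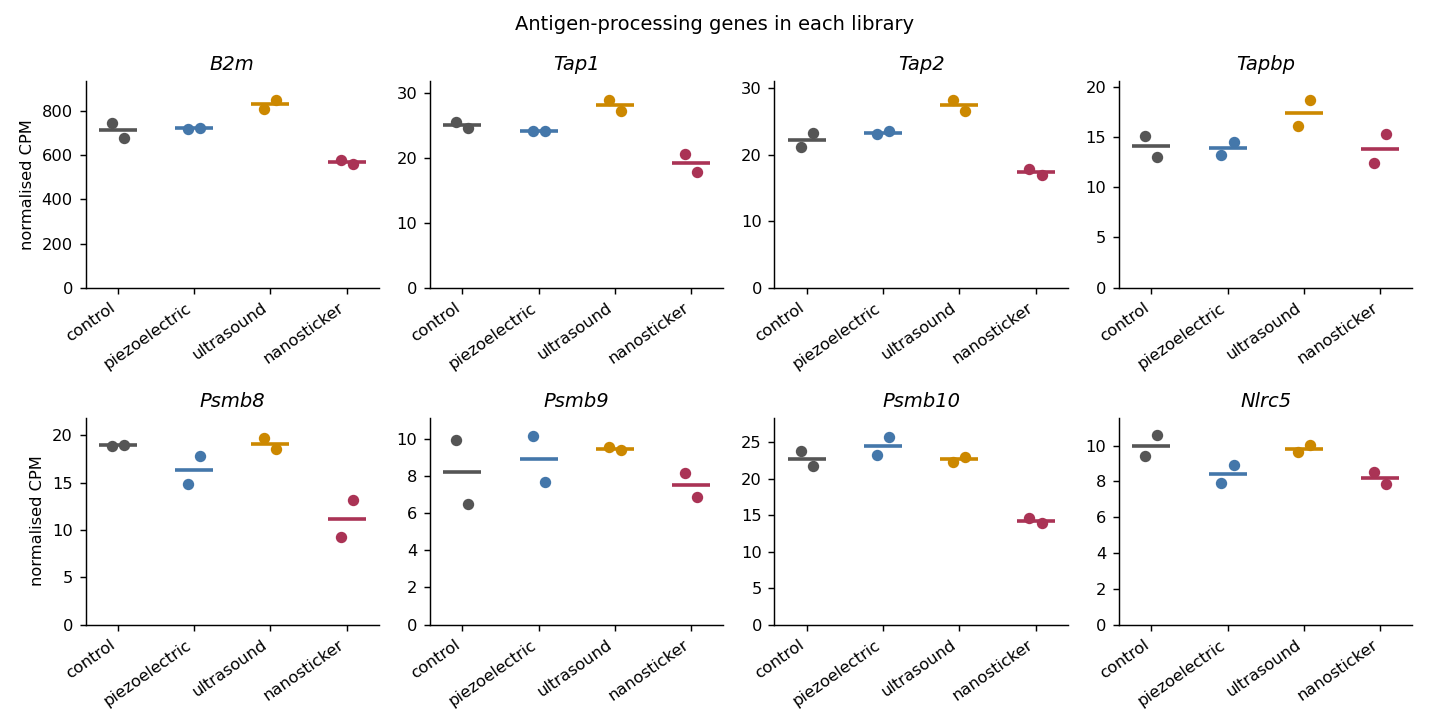
Normalised CPM of the 8 genes in each library (points, 2 per group) with the mean of each group (line). For B2m, Tap1, Tap2, Psmb8 and Psmb10 both nanosticker libraries lie below the 6 others. For Tapbp, Psmb9 and Nlrc5 they lie below both ultrasound libraries but overlap with another group.

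In nanosticker cells 5 of the 8 genes fell against untreated cells and 0 rose: B2m, both transporter genes Tap1 and Tap2, and the immunoproteasome genes Psmb8 and Psmb10. In the same comparison 37.5% of all tested genes passed the test, 19.8% higher and 17.7% lower. That balance depends on the scaling: 2837 genes were higher and 2541 lower with TMM, 2277 and 3221 with library size alone, and 2078 and 2658 by limma on log2(TPM + 1), and the 5 calls held under each of these. Of the 8 genes, 6 were lower in both nanosticker libraries than in both controls, as were 31.1% of all tested genes. The median log2 fold change of the 8 genes was -0.34, beside 0.01 over all genes tested. The tests are edgeR's quasi-likelihood tests, adjusted with Benjamini-Hochberg over all tested genes.

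Among genes of peptide generation, the first step of the pathway, 2 of the 3 immunoproteasome genes had less messenger RNA in nanosticker cells. Proteasome protein and peptide output were not measured. Psmb10, the gene of the inducible subunit that replaces Psmb7, stood at 23.9 and 21.7 CPM in the control libraries and at 14.6 and 13.9 CPM in the nanosticker libraries. The piezoelectric libraries had 23.3 and 25.7 CPM and the ultrasound libraries 22.3 and 23.0 CPM, so the nanosticker libraries were the low ones and did not overlap with any other. Psmb10 fell by 0.68 ± 0.10 (SE) on the log2 scale against control (adjusted p = 0.000123), to 0.626 times the control level.

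Psmb8 encodes the inducible chymotrypsin-like subunit that replaces Psmb5. It stood at 18.9 and 18.99 CPM in the control libraries, 14.9 and 17.9 in the piezoelectric libraries, 19.7 and 18.5 in the ultrasound libraries and 9.20 and 13.1 in the nanosticker libraries. Both nanosticker libraries lay below the 6 others but also apart from each other. Against control it fell by 0.76 ± 0.15 on the log2 scale (adjusted p = 0.00174), with a 95% interval of the log2 fold change from -1.09 to -0.43.

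Psmb9 encodes the inducible subunit that replaces Psmb6, and its gene lies head to head with Tap1. It did not pass the test, with 9.94 and 6.50 CPM in control and 8.14 and 6.88 CPM in nanosticker libraries. The replicates of the control and piezoelectric groups were far apart (10.1 and 7.65 CPM in the latter) and the groups overlapped. Its log2 fold change of -0.13 had a 95% interval from -0.58 to 0.32, which still holds falls as large as that of Tap1. Whether the change of Psmb9 differed from those of Psmb8 and Psmb10 was not tested.

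The constitutive subunits that these 3 replace did not pass the test in any of the comparisons with control. Psmb5, Psmb6 and Psmb7 had log2 fold changes of 0.07, 0.06 and 0.05 in nanosticker cells (adjusted p from 0.424 to 0.638). There 0 of 3 had an unadjusted p below 0.05, beside 6540 of the 14336 tested genes. The summed TPM of Psmb8, Psmb9 and Psmb10 was 11.4% and 11.6% of the summed TPM of Psmb5, Psmb6 and Psmb7 in the control libraries. The share was 11.8% in both piezoelectric libraries, 11.7% and 11.1% in the ultrasound libraries, and 7.40% and 7.36% in the nanosticker libraries. The constitutive sum behind these shares was 902 and 937 TPM in the nanosticker libraries, within the 878 to 944 TPM of the 6 others, and the immunoproteasome sum was 66.8 and 68.9 TPM against 103 to 108 TPM. By pair, Psmb10 went from 13.3% and 14.0% of Psmb7 in control to 8.56% and 7.96%, and Psmb8 from 10.8% and 12.2% of Psmb5 to 5.39% and 7.45%. Psmb9 was 9.40% and 7.19% of Psmb6 in control and 8.38% and 6.38% in nanosticker libraries, which overlap.

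**Figure D2:**
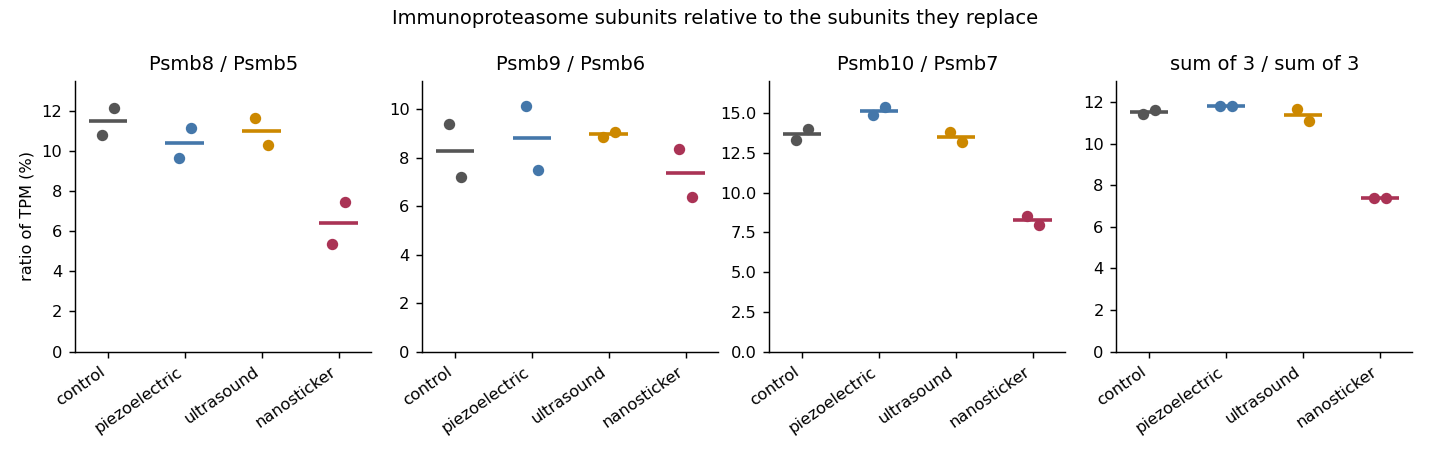
TPM of each immunoproteasome gene as a percentage of the TPM of the constitutive gene it replaces, and of the 3 summed over the 3 summed, in each library (points) with the mean of each group (line). The summed ratio lies between 11.1% and 11.8% in the 6 other libraries and at 7.40% and 7.36% in the nanosticker libraries.

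Tap1 and Tap2 encode the paired subunits of the peptide transporter. Tap1 stood at 25.4 and 24.5 CPM in control and at 20.6 and 17.7 CPM in nanosticker libraries, with 24.0 CPM in both piezoelectric libraries and 28.9 and 27.2 CPM in the ultrasound libraries. Tap2 stood at 21.2 and 23.3 CPM in control and at 17.8 and 17.0 CPM in nanosticker libraries, with 23.1 and 23.6 in the piezoelectric and 28.2 and 26.6 in the ultrasound libraries. For both genes the nanosticker libraries were the lowest and the ultrasound libraries the highest, with no overlap between these groups and the others. Against control Tap1 fell by 0.38 ± 0.09 on the log2 scale (adjusted p = 0.00599) and Tap2 by 0.36 ± 0.09 (adjusted p = 0.00790).

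The calls of Tap1 and Tap2 against control ended with DESeq2 (adjusted p = 0.0581 and 0.0924) and without nanosticker replicate 2 (0.0778 and 0.0637). Over all 18 alternatives their adjusted p ran from 0.00207 to 0.0778 and from 0.00240 to 0.0924. The calls of B2m, Psmb8 and Psmb10 held under every alternative. In the authors' deposited table, B2m, Psmb8 and Psmb10 had q-values of 0.000548, 0.0142 and 0.00431 in this comparison, and Tap1 and Tap2 0.159 and 0.220.

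B2m stood at 745 and 679.8 CPM in the control libraries and at 578 and 562 CPM in the nanosticker libraries. It had 720.2 and 724 CPM in the piezoelectric libraries and 809.9 and 852 CPM in the ultrasound libraries. The nanosticker libraries were the lowest and the ultrasound libraries the highest, and neither overlapped with the control. B2m fell by 0.32 ± 0.06 on the log2 scale against control (adjusted p = 0.000727) and had, with its high counts, the smallest standard error of the 8 genes.

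Tapbp encodes tapasin, which bridges TAP and the empty class I molecule. It did not pass the test, with 15.1 and 13.0 CPM in control and 12.4 and 15.2 CPM in nanosticker libraries (log2 fold change -0.03, 95% interval from -0.32 to 0.27, adjusted p = 0.903). Nlrc5 stood at 9.43 and 10.6 CPM in control and 8.54 and 7.82 CPM in nanosticker libraries, which do not overlap. Its log2 fold change of -0.29 did not pass the test (95% interval from -0.59 to 0.01, adjusted p = 0.123).

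**Figure D3:**
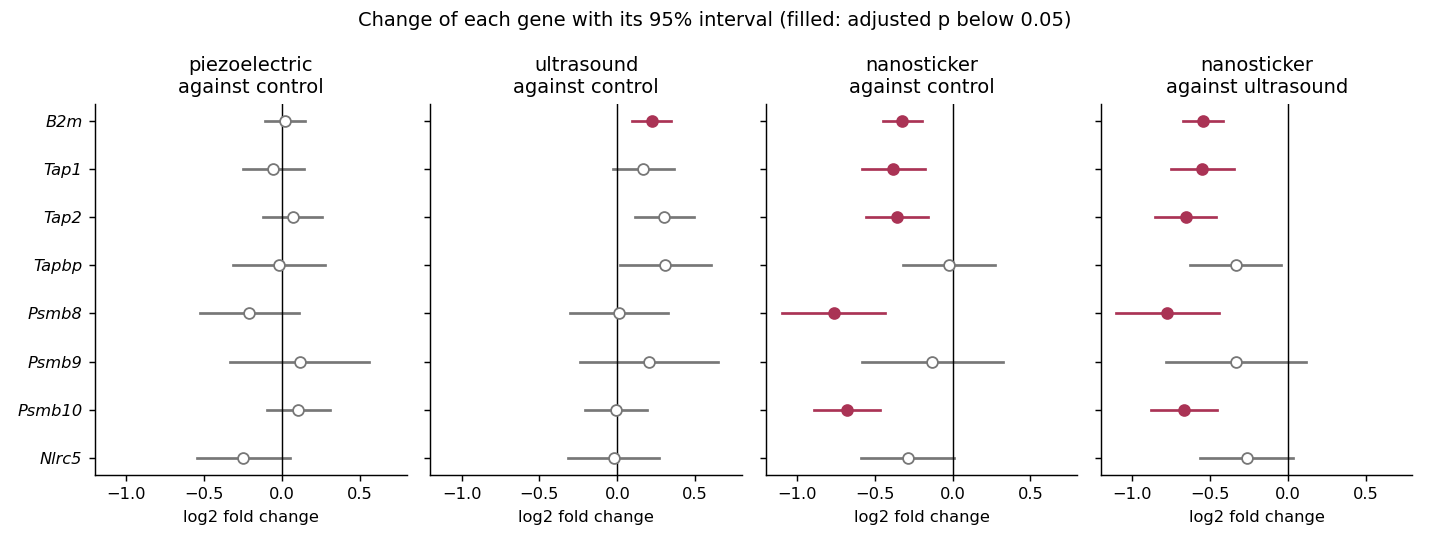
Log2 fold change of each gene (point) with its 95% interval (bar) in 4 comparisons. Filled points have an adjusted p below 0.05: none against control in piezoelectric cells, B2m alone in ultrasound cells, and B2m, Tap1, Tap2, Psmb8 and Psmb10 in nanosticker cells against both control and ultrasound.

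Nanosticker cells also differed from the cells given the piezoelectric material and from those given ultrasound, and the same 5 genes fell in both comparisons. Of all tested genes, 36.4% were called against piezoelectric cells (18.9% higher, 17.4% lower) and 34.4% against ultrasound cells (17.6% higher, 16.9% lower). By the authors' deposited table, 5 of the 8 genes had a q-value below 0.05 against ultrasound cells. Against piezoelectric cells only 2 did, B2m and Psmb10, while Tap2, Psmb8 and Tap1 had q-values of 0.0533, 0.0688 and 0.175. Against piezoelectric cells the log2 fold changes were -0.78 ± 0.10 for Psmb10 (adjusted p = 3.47e-05), -0.55 ± 0.15 for Psmb8 (0.0139), -0.42 ± 0.09 for Tap2 (0.00258), -0.34 ± 0.06 for B2m (0.000491) and -0.33 ± 0.09 for Tap1 (0.0151). Tap1 was not called without either piezoelectric library or without nanosticker replicate 2 (adjusted p from 0.0682 to 0.154), nor by DESeq2 (0.128), and Psmb8 not without piezoelectric replicate 2 (0.139) or nanosticker replicate 1 (0.139). The log2 fold change of Psmb8 was -0.32 without nanosticker replicate 1 and -0.83 without nanosticker replicate 2. Over all alternatives the adjusted p ran from 0.00455 to 0.154 for Tap1 and from 0.00223 to 0.139 for Psmb8.

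Against ultrasound cells the log2 fold changes were -0.55 ± 0.06 for B2m (adjusted p = 1.01e-05), -0.55 ± 0.09 for Tap1 (0.000489) and -0.66 ± 0.09 for Tap2 (8.78e-05). Those of the immunoproteasome genes Psmb8 and Psmb10 were -0.77 ± 0.15 (0.00174) and -0.67 ± 0.10 (0.000153). These 5 calls held under all 18 alternatives. All 8 genes were lower in both nanosticker libraries than in both ultrasound libraries, as were 36.2% of all tested genes. Tapbp (-0.33, adjusted p = 0.0723), Psmb9 (-0.33, 0.241) and Nlrc5 (-0.26, 0.165) did not pass the test. Tapbp passed it under 5 of 18 alternatives, with adjusted p between 0.0261 and 0.418.

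Ultrasound alone was set against no treatment, a comparison in which 7.19% of all genes passed the test, 4.03% higher and 3.16% lower. The higher and lower genes numbered 578 and 453 here, and 312 and 384 by limma on log2(TPM + 1). Of the 8 genes 1 rose and 0 fell. B2m, with 809.9 and 852 CPM against 745 and 679.8, rose by 0.22 ± 0.06 on the log2 scale, to 1.17 times the control level (adjusted p = 0.0366). The call was a marginal one: B2m did not pass under 10 of 18 alternatives, among them the loss of either ultrasound library (adjusted p = 0.136 and 0.320), of either piezoelectric or either nanosticker library (0.0673 to 0.0748) and a fit of only the groups compared (0.170). Over all alternatives its adjusted p ran from 0.000263 to 0.320.

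Tap2, Tapbp and Tap1 stood at 0.30 (adjusted p = 0.0583), 0.31 (0.220) and 0.17 (0.341) on the log2 scale and did not pass the test. For Tap1, Tap2 and Tapbp as for B2m, both ultrasound libraries lay above both controls, and 23.5% of all tested genes did so. Tap2 passed without control replicate 2 (adjusted p = 0.0156) and with the length trend removed (0.0411), within a range of 0.0156 to 0.510 over all alternatives. The immunoproteasome genes Psmb8 and Psmb10 lay at 0.01 and -0.01 with 95% intervals from -0.30 to 0.33 and from -0.21 to 0.19, Psmb9 at 0.20 with one from -0.24 to 0.65, and Nlrc5 at -0.02, from -0.32 to 0.27. By the authors' deposited table, B2m had a q-value of 0.284 in this comparison, and 0 of the 8 genes were below 0.05.

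The piezoelectric material alone gave no call among the 8 genes against control, in a comparison in which 0.23% of all genes passed the test (0.16% higher, 0.0698% lower). edgeR called 0 of 8, and DESeq2 and limma-voom called 0 as well. In edgeR 0 of 8 had an unadjusted p below 0.05, beside 1161 of the 14336 tested genes. The log2 fold changes ran from -0.25 for Nlrc5 to 0.11 for Psmb9. The 95% interval of B2m, from -0.11 to 0.14, was the narrowest, and that of Psmb9, from -0.33 to 0.56, the widest. Psmb8, with 14.9 and 17.9 CPM, and Nlrc5, with 7.89 and 8.93 CPM, were below both controls in both piezoelectric libraries, as was Tap1 by a smaller margin. Of all tested genes 17.7% lay below both controls in this way.

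Between ultrasound and piezoelectric cells, with 3.5% of all genes called (2.13% higher, 1.37% lower), edgeR called 0 of the 8. At an unadjusted p below 0.05 there were 4 of the 8, beside 1870 of the 14336 tested genes. They were B2m, Tap1, Tap2 and Tapbp, all higher in ultrasound cells. Their log2 fold changes were 0.20, 0.22, 0.23 and 0.33, with adjusted p from 0.0861 to 0.290. DESeq2 and limma-voom called 0. B2m was called with only these groups in the fit (adjusted p = 0.00241), with the length trend removed (0.0102) and without either control library (0.00140 and 0.00133).

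By mean, B2m, Tap1, Tap2, Tapbp and Psmb9 were lowest in nanosticker and highest in ultrasound cells. Nanosticker cells were called below each other group for B2m, Tap1 and Tap2. At the upper end the only call was that of B2m in ultrasound above control, since Tap1 and Tap2 were not called above control, nor any of these genes above piezoelectric cells. For Psmb8 and Psmb10 nanosticker cells were lowest, and the other 3 groups gave no call among themselves. For Tapbp, Psmb9 and Nlrc5 no pair of groups was called.

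The design also allows the nanosticker change to be set against the sum of the piezoelectric and ultrasound changes on the log2 scale, although nothing in the labels says that this group combined both. Of the 8 genes 4 lay below the sum and 0 above, where 23.4% of all tested genes departed from it, 11.8% above and 11.6% below. The departures were -0.77 ± 0.13 for Psmb10 (adjusted p = 0.00103), -0.72 ± 0.13 for Tap2 (0.00103), -0.56 ± 0.08 for B2m (0.000261) and -0.49 ± 0.13 for Tap1 (0.0147). Tap1 was not called by DESeq2 (0.146) or without piezoelectric replicate 1 (0.0521), ultrasound replicate 1 (0.0744) or nanosticker replicate 2 (0.0748), in a range from 0.00589 to 0.146. Psmb8 departed by -0.56 ± 0.21 without passing the test (adjusted p = 0.0750).

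Other steps of the class I pathway were followed in lists of genes. These lists were also chosen with earlier results of these data known, so the counts in them are descriptive. Of 9 tested proteasome activator and assembly genes, 2 fell (22.2%, beside 17.7% of all tested genes) and 0 rose in nanosticker cells against control. They were Psme2 and Psme1, the subunits of the interferon-inducible PA28 cap that opens the proteasome. Psme2 stood at 59.7 ± 7.91 CPM in control and 43.0 ± 1.28 CPM in nanosticker cells (-0.47 ± 0.09, adjusted p = 0.00119), and Psme1 at 66.0 ± 9.88 and 52.2 ± 2.58 CPM (-0.34 ± 0.10, adjusted p = 0.0161). Of 11 other subunits of the proteasome core 1 fell (9.09%, beside 17.7% of all tested genes) and 0 rose. The gene that fell was Psma3 (-0.42 ± 0.09, adjusted p = 0.00540).

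The general chaperones of loading did not pass the test in nanosticker cells. Of 6 genes of class I loading and trimming, 0 were called by edgeR against control, beside 37.5% of all tested genes. An unadjusted p below 0.05 was found there for 0 of 6, beside 6540 of the 14336 tested genes. Against ultrasound cells 2 of 6 fell (33.3%, beside 16.9% of all tested genes) and 0 rose. In ultrasound cells against control 1 of 6 rose (16.7%, beside 4.03% of all tested genes). It was Tapbpl, which encodes the tapasin-related editor TAPBPR, and went from 27.1 ± 1.13 to 35.1 ± 1.05 CPM (0.37 ± 0.08, adjusted p = 0.0108).

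Of class I heavy chain and class I-like genes, 20 of 28 in the table passed the filter. Many genes of the rat RT1 region are near copies of one another, and reads may be split wrongly among those whose estimated counts were not whole. Fcgrt, Mr1 and Cd1d1, outside that family, had whole counts. In nanosticker cells 1 fell and 0 rose (5.0% called, beside 37.5% of all tested genes), with a median log2 fold change of 0.01. The member that fell was Fcgrt (-0.23 ± 0.08, adjusted p = 0.0382), the neonatal Fc receptor, which pairs with beta-2-microglobulin but presents no peptide. In ultrasound cells 2 rose and 0 fell (10.0% called), a share near the 7.19% of all tested genes. RT1-S3, whose counts were whole, went from 6.995 ± 0.0587 to 11.9 ± 0.682 CPM (0.77 ± 0.15, adjusted p = 0.00706) and RT1-A2, a classical heavy chain with shared reads, from 35.4 ± 1.84 to 46.5 ± 0.242 CPM (0.39 ± 0.07, adjusted p = 0.00436). In nanosticker cells these stood at 7.02 ± 0.187 and 35.7 ± 0.943 CPM, close to control, with log2 fold changes of 0.00 and 0.02 and adjusted p of 0.987 and 0.893. Whether the heavy chains and B2m changed differently was not tested.

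**Figure D4:**
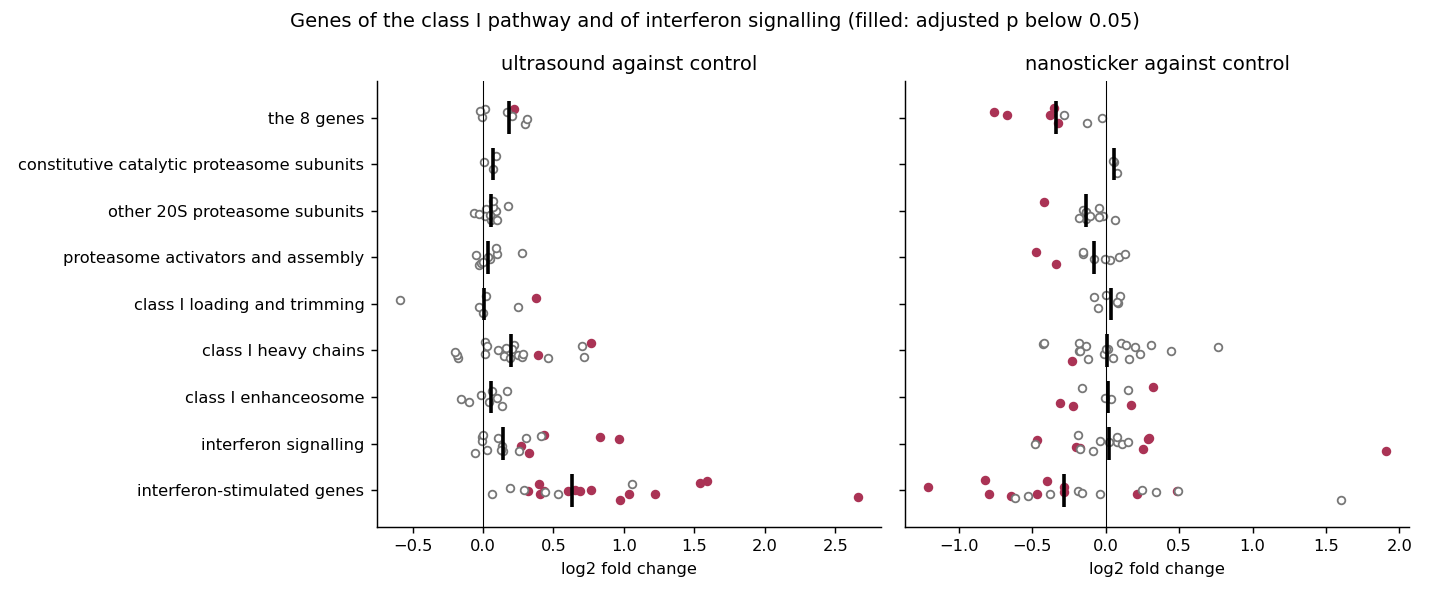
Log2 fold change of each tested gene (points, filled where adjusted p is below 0.05) by list, with the median of the list (line), in ultrasound and nanosticker cells against control. The median of the interferon-stimulated genes is 0.63 in ultrasound and -0.28 in nanosticker cells, and that of the 8 genes 0.19 and -0.34.

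Nlrc5 does not bind DNA itself and acts through the RFX, NFY and CREB/ATF1 factors on class I promoters. Of these 8 factor genes 2 rose and 2 fell in nanosticker cells against control (50% called, beside 37.5% of all tested genes). Rfx5 (0.17, adjusted p = 0.0437) and Atf1 (0.32, 0.0372) rose, and Nfyb (-0.31, 0.0184) and Nfyc (-0.22, 0.0257) fell. In ultrasound cells 0 of the 8 were called by edgeR, beside 7.19% of all tested genes. An unadjusted p below 0.05 was found there for 0 of the 8, beside 2825 of the 14336 tested genes.

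Of 17 interferon signalling genes, 5 rose and 0 fell in ultrasound cells (29.4% called, beside 7.19% of all tested genes), and 4 rose and 3 fell in nanosticker cells (41.2%, beside 37.5%). Irf1, a transcription factor that acts on class I promoters, rose in ultrasound cells from 25.2 ± 0.412 to 34.0 ± 0.739 CPM (0.43 ± 0.10, adjusted p = 0.0177) and stood at 24.5 ± 3.53 CPM in nanosticker cells (adjusted p = 0.774). Stat2, which carries the signal of type I interferon, fell in nanosticker cells from 91.3 ± 2.38 to 66.0 ± 0.405 CPM (-0.47 ± 0.06, adjusted p = 4.08e-05), and the kinase gene Jak1, with shared reads, fell there by 0.21 and rose in ultrasound cells by 0.27 (adjusted p = 0.00903 and 0.00755). Tyk2, a further kinase of the pathway, rose in nanosticker cells (0.29, adjusted p = 0.0124). Socs3, a feedback inhibitor of JAK kinases that several cytokines induce, rose in both, from 24.6 ± 3.92 to 48.0 ± 0.126 CPM with ultrasound and to 92.4 ± 2.33 CPM with nanostickers (0.96 and 1.91, adjusted p = 8.98e-05 and 1.09e-08).

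Among 20 interferon-stimulated genes outside antigen processing, 14 rose and 0 fell in ultrasound cells (70.0% called, beside 7.19% of all tested genes). In nanosticker cells 2 rose and 8 fell (50% called, beside 37.5%). There 10.0% of the list rose and 40.0% fell, beside 19.8% and 17.7% of all tested genes. Rsad2, an antiviral gene, went from 4.19 ± 0.0990 CPM to 9.80 ± 0.146 CPM with ultrasound and 1.80 ± 0.0238 CPM with nanostickers (1.22 and -1.21, adjusted p = 0.000503 and 0.000250). Cmpk2 (-0.80, adjusted p = 1.40e-05), Mx2, with shared reads (-0.40, 0.000123), and Parp14 (-0.47, 0.000768) fell in nanosticker cells too. Cxcl10, a chemokine gene for T cells, rose with ultrasound from 2.55 ± 0.0504 to 7.68 ± 0.0631 CPM (1.59, adjusted p = 0.000245) and stood at 2.47 ± 0.251 CPM with nanostickers (adjusted p = 0.904). Gbp2, an interferon-inducible GTPase gene, rose in both, by 0.69 with ultrasound (adjusted p = 0.000116) and 0.21 with nanostickers (0.0391). The comparisons with control share the control libraries.

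By rule, the 8 other genes most alike in pattern were sought by Pearson correlation across the 8 libraries with the mean standardised log2 CPM of the 8 members. They were Irgm (0.984), Cxcl16 (0.983), Igtp (0.980), Gal3st4 (0.976), Fbxo2 (0.9751), Rgs8 (0.972), Rsad2 (0.970) and S1pr3 (0.970). These values describe 8 libraries that form 4 groups and mostly reflect the distances between groups. Irgm and Igtp (with shared reads), which encode interferon-inducible GTPases, stood at 30.2 and 27.5 CPM in control, 41.1 and 35.2 CPM in ultrasound and 18.2 and 19.6 CPM in nanosticker cells. In the same order of groups, Rgs8 stood at 36.5, 52.4 and 17.2 CPM and Cxcl16 at 13.1, 18.4 and 8.48 CPM. Fbxo2 stood at 315, 352 and 206 CPM, Gal3st4 at 15.3, 17.9 and 10.4 CPM, and S1pr3 at 401, 448 and 262 CPM. Among the 8 genes themselves, B2m followed the mean of the other members most closely (0.985), then Tap1 (0.940) and Tap2 (0.911), and Psmb9 least (0.431).

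Most markers of microglia and macrophages were also lower in nanosticker cells. The summed level of 14 microglia and macrophage markers was 36.3 to 44.4 CPM in control, 26.8 to 27.9 CPM in piezoelectric, 32.9 to 39.0 CPM in ultrasound and 5.93 to 6.29 CPM in nanosticker libraries. Of the 14 markers 12 fell and 0 rose in nanosticker cells against control (85.7% lower, beside 17.7% of all tested genes). C1qc went from 5.61 ± 0.922 to 0.234 ± 0.0503 CPM (-4.54 ± 0.33, adjusted p = 2.14e-07) and Fcer1g, the most abundant of them in control, from 7.09 ± 1.29 to 1.07 ± 0.458 CPM (-2.72 ± 0.31, adjusted p = 1.79e-05), while Cx3cr1 had no count in either nanosticker library. C1qa (-4.08, adjusted p = 4.64e-06) and the receptor gene Csf1r (-3.09, 7.91e-06) fell too, and P2ry12, a microglia marker at 0.806 CPM in control and 0.870 CPM in nanosticker cells, did not pass the test (0.873). Microglia express class I and immunoproteasome genes, and the part of these lower marker levels in the fall of the 8 genes was not tested. In ultrasound cells against control 0 of the 14 were called by edgeR, beside 7.19% of all tested genes. An unadjusted p below 0.05 was found there for 2, beside 2825 of the 14336 tested genes. In piezoelectric cells 0 were called, beside 0.23%, and 5 had an unadjusted p below 0.05, beside 1161 of the 14336. The median log2 fold change of the 14 was 0.04 in ultrasound and -0.51 in piezoelectric cells.

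The 4 lymphocyte markers in the table summed to at most 0.710 CPM in any library. The 8 endothelial markers summed to 1.87 to 4.19 CPM in control and 7.62 to 8.34 CPM in nanosticker libraries. Most of that was Kdr, a VEGF receptor gene (1.87 ± 0.817 to 6.95 ± 0.192 CPM, 1.89 ± 0.27, adjusted p = 0.000123), while Tek, the other tested marker, was not called. Of 10 fibroblast and meningeal markers 4 rose and 0 fell in piezoelectric cells (40.0% called, beside 0.23% of all tested genes). In ultrasound cells 5 rose and 1 fell (60.0%, beside 7.19%), and in nanosticker cells 5 rose and 1 fell (60.0%, beside 37.5%). These markers summed to 250.3 to 268.7 CPM in control and 333.6 to 370.5 CPM in the 6 other libraries. In nanosticker cells Igf2 went from 1.23 to 34.3 CPM (4.80, adjusted p = 2.91e-09), Col3a1 from 25.6 to 97.2 CPM (1.93, 9.62e-09) and Pdgfrb from 96.2 to 51.4 CPM (-0.90, 3.15e-07), and Col1a1, the most abundant over all libraries, from 79.5 to 106.5 CPM (0.42, 0.00246). Of 10 stem and progenitor markers 1 rose and 6 fell in nanosticker cells (70.0% called, beside 37.5% of all tested genes). Sox2 rose by 0.51 (adjusted p = 1.37e-05), Fabp7 and Pax6 fell by 0.84 (3.36e-06) and 1.06 (7.48e-06), and Vim, the most abundant, stood at -0.03 (0.681). The part of these in the values of the 8 genes was not tested.

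**Figure D5:**
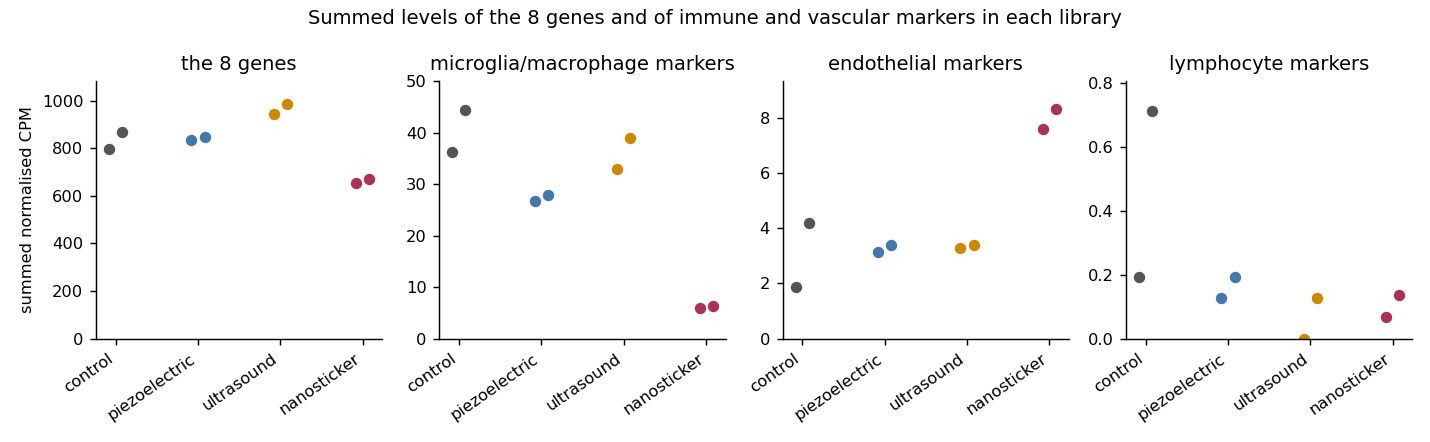
Summed normalised CPM of the 8 genes and of markers of microglia and macrophages, endothelium and lymphocytes in the lower and the higher library of each group (points). The microglia and macrophage sum lies between 26.8 and 44.4 CPM in the 6 other libraries and at 5.93 and 6.29 CPM in the nanosticker libraries.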

How the data were processed

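Per the file headers, the authors' table of 8 libraries holds estimated counts and TPM. Oligo(dT)-selected RNA was fragmented and primed with random hexamers, per the labels' protocols. The submitters' processing notes name the genome build Rnor 6.0. Which aligner and quantifier were used, and whether counting used strand, is not given in the sources used here. Of the deposited estimated counts 10.5% were not whole (tolerance 0.005), and all were rounded. The deposited log2 fold changes and q-values are the authors' DESeq2 results, per the file headers, and are quoted only where named.

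Genes were filtered with filterByExpr and scaled with TMM. One robust edgeR 4.0.16 quasi-likelihood model (R 4.3.3) with a mean per group was fitted to the 8 libraries (4 residual degrees of freedom, biological coefficient of variation 7.09%). Tests were two-sided, adjusted with Benjamini-Hochberg over 14336 genes, threshold 0.05. Standard errors were taken from the log2 fold change and the F statistic. CPM are TMM-scaled, shown as mean ± SD of 2 libraries. edgeR was tested on simulated counts.

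Replicate libraries of every group differed by more than sampling noise (chi-square per degree of freedom from 2.44 to 10.3). Alternatives were DESeq2 1.42.0, limma-voom and limma 3.58.1 on log2(TPM + 1), other size factors and filters, the replicate block, the groups compared alone, removal of each library's length trend (lowess, span 0.3), and each library left out, which assumes that a lone library varies as the rest do. The members and gene lists were chosen with earlier results of these data known. Named list genes are those with the smallest adjusted p, up to 4 in nanosticker and 3 in ultrasound cells against control, with at least 2 CPM in a group. Genes alike in pattern had at least 5 CPM and an SD of log2 CPM of at least 0.3. Of each marker list the most abundant member and up to 3 called ones could be named. RT1-DMa, the class II neighbours, Nes, Hes5, Sox1, Prom1, Mr1, Cd1d1, Tek, P2ry12 and Cx3cr1 were chosen after their values were seen. No sequence is shown, and the planned search of promoters for motifs was not run. A deposited matrix of library correlations was not used.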

Additional observations from a re-analysis of the deposited data

Results flagged for a closer look

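In 4 genes the nanosticker change differed from the sum of the piezoelectric and ultrasound changes in a test of the difference itself (edgeR's quasi-likelihood test, adjusted over all tested genes). The departures were -0.56 for B2m, -0.49 for Tap1, -0.72 for Tap2 and -0.77 for Psmb10 on the log2 scale. Of all tested genes 23.4% departed from the sum, 11.8% above and 11.6% below it. No label states that the nanosticker group received ultrasound, so the sum is a reference and not a stated expectation.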

How the results depend on the processing

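With only 2 libraries a group, single libraries carry weight. Of 20 calls on the 8 genes over all comparisons, 14 held under every alternative, and no call changed sign. Called members in ultrasound against control went from 1 to 0 with library size alone, limma on log2(TPM + 1), only the groups compared, and the replicate block, and to 2 with the length trend removed. Leaving out 1 library gave 0 to 2 there. In nanosticker against control the 5 became 3 by DESeq2 and 3 to 5 without 1 library, and in nanosticker against piezoelectric 3 to 5. In ultrasound against piezoelectric the 0 became 1 with only the groups compared or the length trend removed, and 0 to 1 without 1 library. The cause was not tested. Counted per gene, comparison and alternative, 29 uncalled values changed sign, beside 602 that stayed uncalled with the same sign.

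Over all genes, the counts past the threshold moved by more than 1.5 times in some settings. For piezoelectric against control, 33 became 7 by limma on log2(TPM + 1), 81 with no filter, 10 with only the groups compared and 136 with the length trend removed, and 11 to 1143 without 1 library. For ultrasound against control, 1031 became 606 by DESeq2, 476 with only the groups compared and 1595 with the length trend removed, and 376 to 2208 without 1 library. For ultrasound against piezoelectric, 502 became 323 by DESeq2, 279 by limma on log2(TPM + 1), 1200 and 853 with the groups compared alone and the trend removed, and 151 to 1202 without 1 library. For nanosticker against ultrasound, 4938 became 3264 by DESeq2 and 3213 to 6237 without 1 library. The departure count of 3350 became 2119 by DESeq2.

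No label says whether same-numbered libraries share more than a number. Their deviations correlated from -0.136 to 0.135 between groups, which cannot settle it. The replicate block gave 0, 5, 5 and 5 called members in ultrasound against control and in nanosticker against control, piezoelectric and ultrasound. Psmb9 and Nlrc5 had the lowest counts, with 101 to 158 and 116 to 164 a library.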
